A study of Mus musculus with 6 samples.

Results

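The fibroblast growth factor (FGF) genes described here are 10 members matched by symbol, 6 ligand genes (Fgf1, Fgf2, Fgf7, Fgf10, Fgf13 and Fgf21) and 4 receptor genes (Fgfr1, Fgfr2, Fgfr3 and Fgfr4), of 54146 gene rows in each count table. They were measured by RNA sequencing of tumors formed by 4T1 cells, a mouse mammary carcinoma line. The Ki-67-KO group holds 3 libraries from tumors of Mki67-/- cells, in which the gene coding for the proliferation marker Ki-67 is knocked out. The wild-type group holds 3 libraries from tumors of wild-type 4T1 cells. All tumors grew from cells placed in a mammary fat pad of nude mice (a strain without a thymus) and were taken after 3 weeks. The age of the mice and the number of knockout clones are not given in the labels, so a difference between clones and an effect of the knockout cannot be told apart in any comparison below. The labels do not say whether the 3 libraries of a group came from separate mice, so n counts libraries and p-values measure the spread between them, which may be technical. The tumors hold host cells beside the 4T1 cells. In such bulk samples, fewer cells of a type and less RNA per cell cannot be told apart.

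FGF ligands are secreted proteins that, together with heparan sulfate chains, bind FGF receptors, which are receptor tyrosine kinases that signal through the adaptor Frs2 and the Ras and MAP kinase pathway. In many organs Fgf7 and Fgf10 are made by connective tissue cells and act on the IIIb splice form of Fgfr2 in the neighbouring epithelium, while the IIIc forms of Fgfr1 and Fgfr2 are typical of mesenchymal cells. In the mammary gland, Fgf10 and Fgfr2 are needed for the gland to form. Fgf21 is an endocrine FGF that needs the co-receptor Klb, and Fgf13 belongs to the FGF homologous factors, which stay inside the cell and bind sodium channels.

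Gene counts were 22081970 to 30772729 read pairs in the Ki-67-KO libraries and 37065778 to 38399826 in the wild-type libraries. In Ki-67-KO replicates 1, 2 and 3 the aligner left 30.8%, 54.6% and 52.7% of pairs unmapped, against 31.2% to 33.9% in wild-type libraries. Of uniquely mapped pairs, 14.2%, 9.91% and 18.9% lay outside exons in the same Ki-67-KO libraries, against 9.24% to 11.1% in wild-type libraries. Mki67 itself was at 98.5, 117 and 138 CPM (gene counts relative to the library total, with TMM scaling) in the Ki-67-KO libraries and at 359, 394 and 324 CPM in the wild-type libraries, so each library lay on the side of its label. Of 10 epithelial marker genes, 9 were higher and 0 lower in Ki-67-KO tumors, beside 17.6% higher and 18.4% lower among all genes tested. Their summed level was 6063 to 6513 CPM in Ki-67-KO and 2896 to 3006 CPM in wild-type libraries. The keratin gene Krt8 was at 1637 CPM in Ki-67-KO and 1447 CPM in wild-type tumors and did not pass, so both groups carried markers of an epithelial tumor.

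The main changes among the receptors were a lower level of Fgfr2 and a higher level of Fgfr1 in Ki-67-KO tumors. Fgfr2 fell 3.31-fold in Ki-67-KO tumors and Fgfr1 rose 2.82-fold, while Fgfr3 was at nearly the same mean level in both groups and Fgfr4 was close to the counting limit. Of the ligands, Fgf2, Fgf7, Fgf10 and Fgf13 rose, Fgf1 missed the threshold, and Fgf21 was too low for the test. Of the 8 members that passed the filter on low counts, 5 were called higher and 1 lower by edgeR (adjusted p under 0.05), whereas 36% of all 19900 genes tested were called, 17.6% of them higher and 18.4% lower as shares of the genes tested. The number of genes called was 7158, and 4078, 4415 and 4036 without wild-type replicate 1, 2 and 3. Fgf10 reached the filter limit of 0.295 CPM in 3 Ki-67-KO and 0 wild-type libraries and Fgf13 in 3 and 1, so these genes entered the test through the group in which they were higher, and the count of 5 is no measure of how the FGF genes moved as a group.

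**Figure D1:**
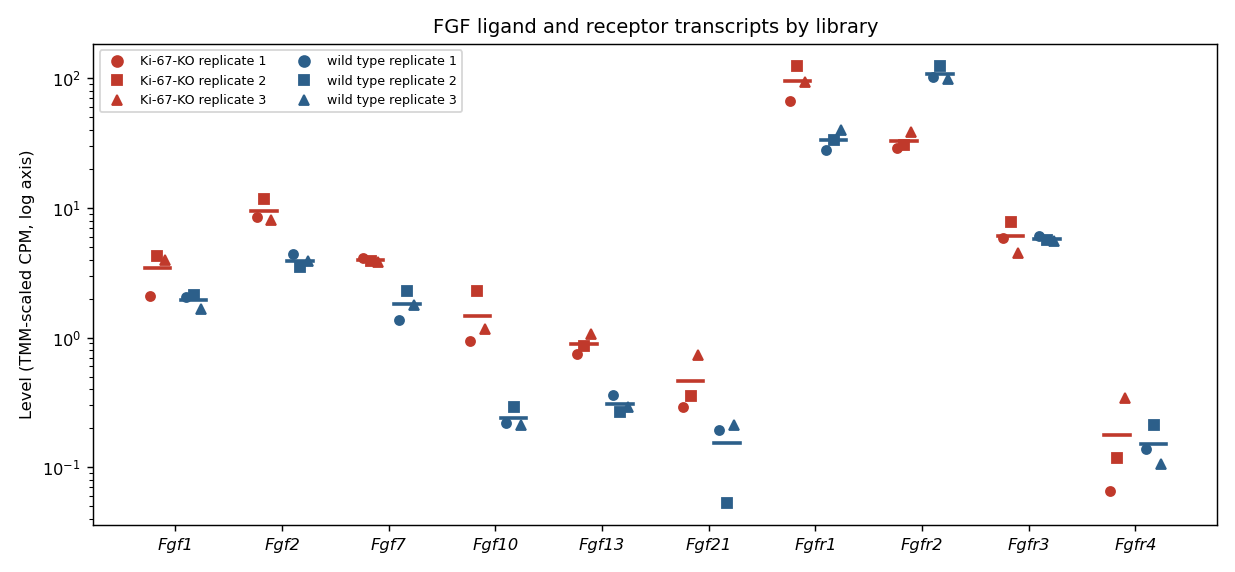
Level of each of the 10 FGF genes in each library, in TMM-scaled CPM on a log axis; red symbols are the 3 Ki-67-KO libraries, blue symbols the 3 wild-type libraries, and short lines the group means. The 3 Ki-67-KO libraries lie above the wild-type ones for Fgf2, Fgf7, Fgf10, Fgf13, Fgf21 and Fgfr1 and below them for Fgfr2.

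Fgfr2 (ENSMUSG00000030849, GRCm38 chromosome 7, minus strand), the receptor of Fgf7 and Fgf10 in its IIIb form, was at 28.9, 30.6 and 38.8 CPM in Ki-67-KO replicates 1, 2 and 3. In the wild-type libraries it was at 102, 124 and 98.0 CPM. The groups did not overlap, as was the case for 50.5% of all genes tested (24.5% higher and 26% lower in Ki-67-KO tumors). The mean was 32.75 CPM ± 5.29 in Ki-67-KO and 108 CPM ± 14.2 in wild-type tumors (SD, n = 3 each). In edgeR the log2 fold change was -1.73, with an SE of 0.14 and an adjusted p of 5.23e-05. Of the genes tested, 349 (1.75%) had a log2 fold change as low or lower. The call held in all 18 alternatives run, with log2 fold changes from -1.97 to -1.64. One annotated Fgfr2 transcript runs on to position 133123350 and shares 314 exonic bases with Ctbp2, 3.04% of the exonic bases of Fgfr2, and pairs on those bases are not counted for either gene.

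Fgfr1 (ENSMUSG00000031565, GRCm38 chromosome 8, 25513654 to 25575718, plus strand), the receptor that in its IIIc form binds Fgf2 and is typical of mesenchymal cells, was at 66.9, 125 and 93.7 CPM in the Ki-67-KO libraries. The wild-type libraries had 27.8, 33.4 and 39.9 CPM. All Ki-67-KO values were above all wild-type values, with Ki-67-KO replicate 2 the highest and replicate 1 the lowest of the knockout libraries. The means were 95.2 CPM ± 29.0 in Ki-67-KO and 33.7 CPM ± 6.04 in wild-type tumors (SD, n = 3 each). The quasi-likelihood test of edgeR put the log2 fold change at 1.50, with an SE of 0.22 and an adjusted p of 0.00132. The fold change was 1.20 on the log2 scale without Ki-67-KO replicate 2 and 0.92 with only the libraries under 40% unmapped pairs, which keep 1 Ki-67-KO library, and both passed the threshold. With a single Ki-67-KO library, its spread is taken to be that of the wild-type libraries. Exons of Gm16159 on the other strand share 1.66% of the exonic bases of Fgfr1.

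Fgfr3, a receptor expressed in many epithelia and in cartilage, was at 5.81, 7.77 and 4.51 CPM in Ki-67-KO libraries and at 6.04, 5.66 and 5.58 CPM in wild-type libraries. The Ki-67-KO values spread to both sides of the wild-type values. Its log2 fold change was 0.07 (SE 0.20; adjusted p = 0.813 in edgeR), which did not pass, and its sign turned in 4 of the 18 alternatives. Of its exonic bases 13.9% are also exonic in G630022F23Rik on the other strand. Fgfr4, a receptor best known in liver and muscle, had 2, 3 and 8 counts in Ki-67-KO libraries and 5, 8 and 4 in wild-type libraries, or 0.065 to 0.34 CPM and 0.11 to 0.21 CPM. A count of 0 would allow up to 3 counts, so Fgfr4 lay at or little above what the depth can show, and a difference was not detectable (exact permutation test on CPM, two-sided, p = 0.9).

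To set Fgfr2 and Fgfr3 beside Fgfr1 without any scaling between libraries, the ratio of counts was taken within each library. The log2 ratio of Fgfr2 to Fgfr1 was -1.21, -2.03 and -1.27 in Ki-67-KO replicates 1, 2 and 3, and 1.88, 1.90 and 1.30 in the wild-type libraries. Fgfr2 thus had fewer counts than Fgfr1 in each Ki-67-KO library and more in each wild-type library. The means were -1.50 ± 0.45 and 1.69 ± 0.34 (SD, n = 3 each) in Ki-67-KO and wild-type tumors, and the difference of -3.20 is a 9.17-fold lower ratio in Ki-67-KO tumors. The ratio of Fgfr3 to Fgfr1 was also lower in each Ki-67-KO library, at -3.53, -4.01 and -4.38 on the log2 scale against -2.20, -2.56 and -2.84 in the wild-type libraries. Its difference was -1.43, a 2.70-fold lower ratio, although the level of Fgfr3 itself did not pass the test. Both differences gave p = 0.10 in the exact permutation test (two-sided), the smallest p that 3 libraries against 3 can give, and 0.15 after Benjamini-Hochberg adjustment over 6 comparisons, the other 4 being the receptor shares. Fgfr2 was thus lower both in its own level and relative to Fgfr1, and Fgfr3 was lower relative to Fgfr1 while its own level did not pass.

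Levels of different genes were compared per kilobase of annotated exon. Per kilobase, Fgfr1 made up 65.1%, 75.6% and 67.9% of the summed receptor level in the Ki-67-KO libraries and 20.7%, 20.8% and 28.2% in the wild-type libraries. Fgfr2 made up 26.9%, 17.7% and 26.9% in Ki-67-KO and 72.9%, 74.0% and 66.2% in wild-type libraries. The leading receptor was therefore Fgfr1 in each Ki-67-KO library and Fgfr2 in each wild-type library. For both shares the groups did not overlap (exact permutation test, two-sided, p = 0.10, the smallest possible, and 0.15 after Benjamini-Hochberg adjustment). The shares are parts of the same sum, so they are not separate results. Fgfr3 held 6.27% ± 1.66 in Ki-67-KO and 5.49% ± 0.67 in wild-type tumors (SD, n = 3 each; exact permutation p = 0.6), and Fgfr4 under 1% in each library. The summed level of the 4 receptors was 13.7 ± 3.17 CPM per kilobase in Ki-67-KO tumors and 14.7 ± 1.38 CPM per kilobase in wild-type tumors (SD, n = 3 each; exact permutation p = 0.8), and the ranges overlapped.

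**Figure D2:**
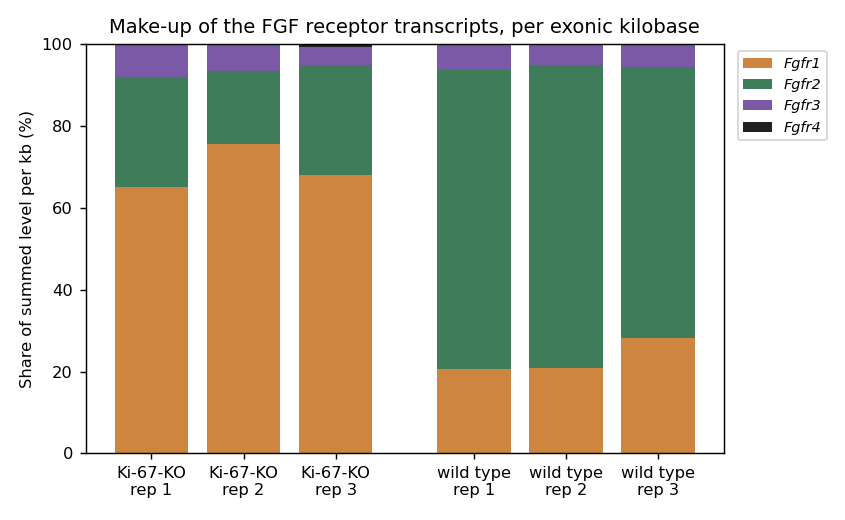
Share of each receptor gene in the summed level of Fgfr1 to Fgfr4, in percent of counts per exonic kilobase, with 1 bar per library and the 3 Ki-67-KO libraries on the left. Fgfr1 takes 65.1% to 75.6% of the Ki-67-KO bars and 20.7% to 28.2% of the wild-type bars, and Fgfr2 fills most of the rest.

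In the order of levels per kilobase, Fgfr1, Fgfr2, Fgf2, Fgf7 and Fgfr3 stood at the top in Ki-67-KO tumors, at 9.64, 3.17, 1.39, 1.22 and 0.84 CPM per kilobase. The order in wild-type tumors was Fgfr2, Fgfr1, Fgfr3, Fgf2 and Fgf7, at 10.5, 3.41, 0.80, 0.58 and 0.56 CPM per kilobase. Of these neighbours, Fgf2 and Fgf7 overlapped in their library values in both groups and the others did not. By this length, Fgf2 and Fgf7 lay above Fgfr3 in Ki-67-KO tumors and below it in wild-type tumors. The longest transcript of Fgfr3 has 4245 bases against 7158 exonic bases in all. For Fgf2 these lengths are 5973 and 6782, and for Fgf7 2672 and 3248. The order of these 3 genes therefore depends on the length used, and it was taken with exonic bases only. At the low end, the ranges of Fgfr3, Fgf1, Fgf21, Fgf10 and Fgf13 overlapped from each to the next in Ki-67-KO tumors. Fgfr4 had the lowest level per kilobase in Ki-67-KO tumors, and in wild-type tumors its range overlapped that of Fgf10.

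Among the ligands that are members, Fgf2, Fgf7 and Fgf10 were the secreted ones that rose. The 250 bases before the RefSeq start site of each (GRCm38.p6) are shown. Each of these genes was called higher, and its RefSeq start is also a transcript start in GENCODE M21. The Fgf2 and Fgf10 windows lie inside the annotated genes, which begin at 37348346 and 118669791, so these are not the most upstream starts. Capitals mark GGAA or its complement on the other strand, the core that Ets factors bind.
Fgf2, chr3:37348403-37348652, plus strand: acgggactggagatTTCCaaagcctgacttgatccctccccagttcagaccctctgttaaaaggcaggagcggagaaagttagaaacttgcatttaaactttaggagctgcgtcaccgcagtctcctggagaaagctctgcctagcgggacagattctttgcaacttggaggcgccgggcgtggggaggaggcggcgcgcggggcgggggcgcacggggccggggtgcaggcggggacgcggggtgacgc
Fgf7, chr2:126034408-126034657, plus strand: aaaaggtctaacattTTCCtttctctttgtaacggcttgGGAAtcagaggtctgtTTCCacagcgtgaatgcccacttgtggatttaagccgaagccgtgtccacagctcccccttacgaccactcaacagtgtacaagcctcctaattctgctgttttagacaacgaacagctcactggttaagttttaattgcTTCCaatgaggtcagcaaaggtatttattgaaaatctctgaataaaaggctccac
Fgf10, chr13:118714449-118714698, plus strand: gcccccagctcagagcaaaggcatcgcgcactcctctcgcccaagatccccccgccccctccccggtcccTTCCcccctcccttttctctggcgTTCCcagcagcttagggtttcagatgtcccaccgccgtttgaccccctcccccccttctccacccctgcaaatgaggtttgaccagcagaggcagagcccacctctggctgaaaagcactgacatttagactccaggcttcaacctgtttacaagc
The windows hold GGAA at 1, 4 and 2 places in Fgf2, Fgf7 and Fgf10, and 93.4% of the 32851 promoter windows of the same length hold it at least once, searched on both strands. CAGGTG, the E-box that Zeb and Snai factors bind, and TGANTCA, the AP-1 motif, are in none of the 3 windows, and 17.2% and 6.75% of all windows hold them. The windows differ in base composition, with 20, 6 and 8 CpG dinucleotides and a GC content of 62.4%, 43.6% and 61.2% in the same order, against medians of 6 and 52.4% over all windows.

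Fgf2 (ENSMUSG00000037225, GRCm38 chromosome 3, 37348346 to 37410108, plus strand), basic FGF, was at 8.54, 11.7 and 8.03 CPM in the Ki-67-KO libraries and at 4.41, 3.52 and 3.87 CPM in the wild-type libraries. The groups did not overlap. Its mean was 9.43 CPM ± 1.99 in Ki-67-KO and 3.93 CPM ± 0.45 in wild-type tumors (SD, n = 3 each), 2.40-fold higher (log2 fold change 1.26, SE 0.19, edgeR adjusted p = 0.00135). Exons of Nudt6 on the other strand and of Gm43439 cover 13.2% of its exonic bases, and pairs on these bases were not counted in the unstranded column. In the first stranded column the log2 fold change was 0.90 and the gene still passed.

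Fgf7 (ENSMUSG00000027208, GRCm38 chromosome 2, 126034658 to 126091185, plus strand), keratinocyte growth factor, was at 4.12, 3.90 and 3.82 CPM in Ki-67-KO libraries and at 1.38, 2.30 and 1.79 CPM in wild-type libraries. It had the tightest Ki-67-KO values of the called ligands, and each lay above each wild-type value. The rise was 2.17-fold (log2 fold change 1.11, SE 0.23, edgeR adjusted p = 0.00600). Fgf10 (ENSMUSG00000021732, GRCm38 chromosome 13, 118669791 to 118792115, plus strand) had 29, 58 and 27 counts in Ki-67-KO libraries and 8, 11 and 8 counts in wild-type libraries, or 0.94, 2.29 and 1.16 CPM and 0.22, 0.29 and 0.21 CPM. It was the member with the highest fold change in this fit, 5.95-fold (log2 fold change 2.57, SE 0.44, edgeR adjusted p = 0.00277), and 1.54% of all genes tested rose as much or more. Fgf10 reached the filter limit in 3 Ki-67-KO and 0 wild-type libraries, so it entered the test through the group in which it was higher. Its rank is therefore a description only. Ki-67-KO replicate 2 was 1.97 times the next Ki-67-KO library, and the log2 fold change was 2.05 without it, 1.88 with only the libraries under 40% unmapped pairs, 1.98 with the unmapped share in the fit and 3.19 in the first stranded column, each past the threshold. Fgf7 and Fgf10, which bind the IIIb form of Fgfr2, were thus higher in the tumors in which Fgfr2 was lower. Counts per gene do not separate the IIIb and IIIc forms.

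Fgf1, acidic FGF, which binds all FGF receptors, was at 2.11, 4.26 and 3.95 CPM in Ki-67-KO libraries and at 2.04, 2.11 and 1.65 CPM in wild-type libraries. Ki-67-KO replicate 1 lay within the wild-type range and the other two above it. The log2 fold change of 0.82 (SE 0.29) missed the threshold in edgeR (adjusted p = 0.0526), and passed in 5 of the 18 alternatives, among them DESeq2 (adjusted p = 0.0338) and the fit without Ki-67-KO replicate 1 (1.08, adjusted p = 0.00355). With only the libraries under 40% unmapped pairs it was 0.06.

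Fgf13 (ENSMUSG00000031137, GRCm38 chromosome X, 59062145 to 59568071, minus strand) had 23, 22 and 25 counts in Ki-67-KO libraries and 13, 10 and 11 in wild-type libraries, which after scaling is 0.75, 0.87 and 1.07 CPM and 0.36, 0.26 and 0.29 CPM. The groups did not overlap, and the rise was 2.90-fold (log2 fold change 1.54, SE 0.36, edgeR adjusted p = 0.0116). In edgeR the call was lost when wild-type replicate 2 (adjusted p = 0.0663) or 3 (adjusted p = 0.0676) was left out. It was also lost when the fit held the unmapped share (adjusted p = 0.0803) or kept the libraries under 40% unmapped alone (adjusted p = 0.0705). The log2 fold changes were then 1.22 to 1.48. Fgf21 had 9, 9 and 17 counts in Ki-67-KO libraries and 7, 2 and 8 in wild-type libraries, or 0.29, 0.35 and 0.73 CPM and 0.19, 0.053 and 0.21 CPM. Each Ki-67-KO value was above each wild-type value (exact permutation test, two-sided, p = 0.10, the smallest possible), but wild-type replicate 2 was under the limit that a count of 0 allows. Fitted without the filter on low counts, Fgf21 did not pass (edgeR adjusted p = 0.133).

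**Figure D3:**
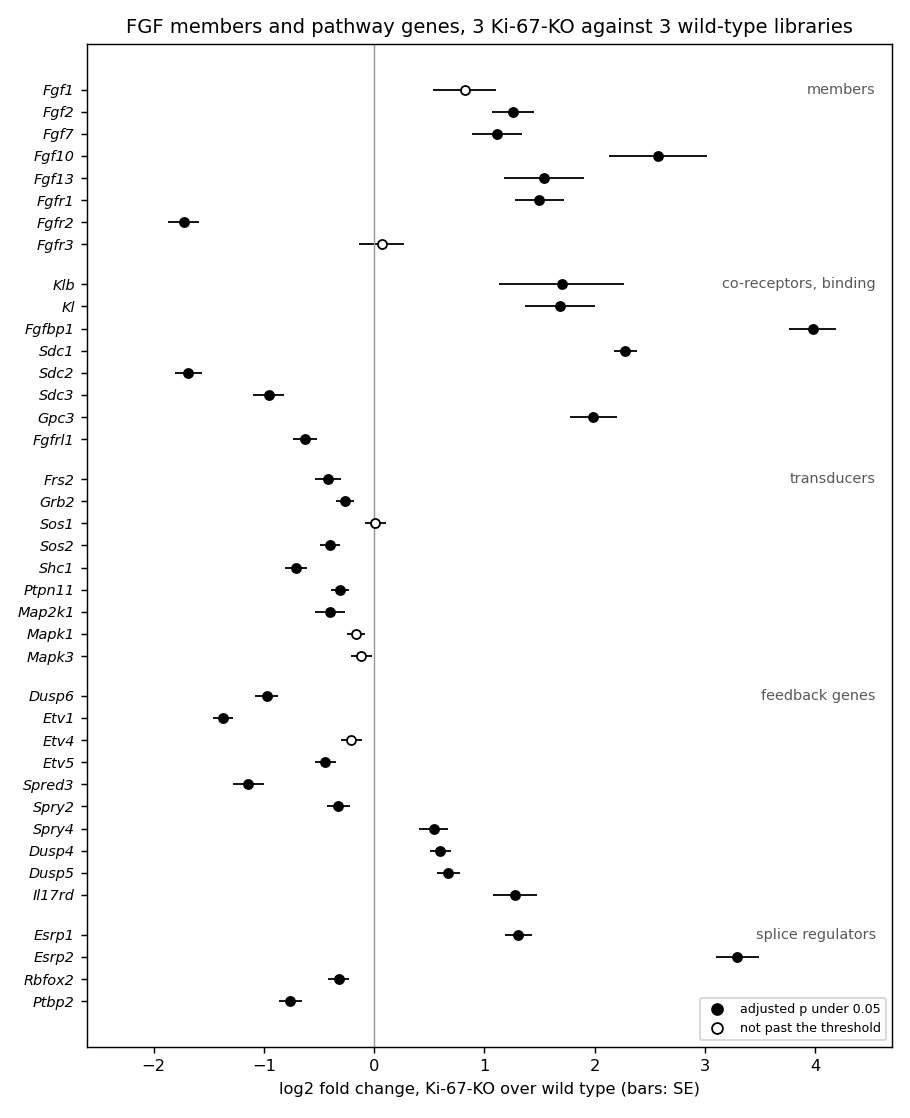
Log2 fold change of Ki-67-KO over wild-type tumors for the 8 tested FGF genes and for genes of the FGF pathway, with bars of 1 SE from edgeR; filled points passed an adjusted p of 0.05 and open points did not. Fgfr2 at -1.73 and Fgfr1 at 1.50 lie on opposite sides of 0, and the Esrp genes lie at 1.31 and 3.29.

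Of the other 16 FGF ligand genes, all but Fgf11 were scarce. Only 8 of the 16 passed the filter, of which 2 rose and 0 fell. Of all genes tested, 17.6% were called higher, so the count is close to that share. Fgf8 reached the filter limit in 2 Ki-67-KO and 1 wild-type libraries, Fgf14 in 2 and 2, and Fgf23, called higher, in 3 and 2. Fgf23, a hormone made by bone cells that controls phosphate, was at 1.59, 4.26 and 2.92 CPM in Ki-67-KO and 0.36, 0.71 and 0.16 CPM in wild-type libraries (log2 fold change 2.81, SE 0.53, edgeR adjusted p = 0.00445). The log2 fold change of Fgf23 was 3.45 without wild-type replicate 2 and 1.88 with only the libraries under 40% unmapped, and it passed in both. With the unmapped share in the fit its fold change was also smaller than in the main fit, and Fgf23 was still called higher in Ki-67-KO tumors. Fgf9, a ligand that favours IIIc receptors and Fgfr3, was at 0.97, 0.87 and 1.12 CPM in Ki-67-KO and 0.41, 0.37 and 0.48 CPM in wild-type libraries (log2 fold change 1.22, adjusted p = 0.0190), a call lost in 9 of its 17 alternatives. The number higher was 1 without any of the wild-type replicates or without Ki-67-KO replicate 3, and 4 without Ki-67-KO replicate 2. Fgf18 and Fgf14 did not pass (adjusted p = 0.0877 and 0.0856), and Fgf4 was untested at 0.079 to 0.69 CPM in Ki-67-KO and 0.14 to 0.27 CPM in wild-type libraries. The most abundant ligand of this set by count, Fgf11, an FGF homologous factor, was at 8.84 CPM ± 1.84 in Ki-67-KO and 10.4 CPM ± 0.88 in wild-type tumors (SD, n = 3 each) and did not pass (adjusted p = 0.313).

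Of 17 tested genes of co-receptors and FGF-binding proteins, 11 were higher and 3 lower, against 17.6% higher and 18.4% lower among all genes tested. Their median log2 fold change was 1.19, against 0.05 over all genes tested. Fgfbp1, a secreted carrier that releases FGFs from heparan sulfate, was at 145, 99.6 and 120 CPM in Ki-67-KO libraries and at 5.76, 9.46 and 7.92 CPM in wild-type libraries. Its log2 fold change was 3.98 (SE 0.21, edgeR adjusted p = 5.91e-06), higher than that of any ligand or receptor tested. The syndecans, heparan sulfate proteoglycans of the cell surface, split. Sdc1, the syndecan of epithelia, rose to 986 CPM ± 84.1 in Ki-67-KO against 203 CPM ± 12.5 in wild-type tumors (SD, n = 3 each). Sdc2 fell to 158 CPM ± 19.9 in Ki-67-KO against 506 CPM ± 43.7 in wild-type tumors (SD, n = 3 each). Sdc3 also fell, by 0.96 on the log2 scale, and Sdc4, at 460 CPM in Ki-67-KO and 473 CPM in wild-type tumors, missed the threshold. The glypican gene Gpc3 rose by 1.99 on the log2 scale. Fgfrl1, a receptor-like protein without a kinase domain, fell by 0.63. Klb, the co-receptor of Fgf21, was at 0.45, 0.99 and 0.43 CPM in Ki-67-KO and 0.22, 0.079 and 0.27 CPM in wild-type libraries and passed (log2 fold change 1.70, adjusted p = 0.0452), a call lost in 8 of its 16 alternatives. It reached the filter limit in 3 Ki-67-KO and 0 wild-type libraries, so it entered the test through the group in which it was higher. Kl, the co-receptor of Fgf23, rose by 1.68. Leaving out wild-type replicate 1 or 3 or Ki-67-KO replicate 3 left 7 higher.

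Of 20 genes that carry the signal inside the cell, 0 rose and 6 fell (Shc1, Sos2, Ptpn11, Frs2, Grb2 and Map2k1), and 14 did not pass, where 17.6% of all genes tested were called higher and 18.4% lower. Their median log2 fold change was -0.21. Shc1, an adaptor, had the largest fall of the list, by 0.71 on the log2 scale, and Frs2, the docking protein of FGF receptors, fell by 0.42. Leaving out Ki-67-KO replicate 3 or wild-type replicate 1 or 2 left 2 lower, and leaving out wild-type replicate 3 left 1.

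Of 16 feedback and target genes of FGF and MAP kinase signalling, 5 were higher and 8 lower, beside 17.6% higher and 18.4% lower among all genes tested. The median log2 fold change of the list was -0.35. Dusp6, a phosphatase of ERK, was at 173, 176 and 167 CPM in Ki-67-KO libraries and at 333, 302 and 379 CPM in wild-type libraries (log2 fold change -0.97, SE 0.10, edgeR adjusted p = 0.000215). The Ets factor gene Etv1 fell by 1.37 and Etv5 by 0.44, while Etv4 was at 105 and 121 CPM in Ki-67-KO and wild-type tumors and did not pass (adjusted p = 0.135). Spred3, an inhibitor of the pathway, fell by 1.14, and Spred1, Spred2, Spry2 and Ccnd1 fell by 0.32 to 0.61. Dusp5, Dusp4, Spry4 and Egr1 rose by 0.54 to 0.73, and Il17rd, an inhibitor of FGF signalling also called Sef, rose by 1.28. As background, these genes answer to other growth factors too. Leaving out Ki-67-KO replicate 3 or wild-type replicate 1 or 2 left 5 lower, leaving out wild-type replicate 3 left 4, and 3 were higher when wild-type replicate 1 or 2 was left out.

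Of 13 regulators of Fgfr exon choice, 3 were higher and 5 lower, where all genes tested had 17.6% higher and 18.4% lower. Esrp1 and Esrp2, epithelial splicing factors that favour the IIIb exon of Fgfr2, rose. Esrp1 was at 88.9, 116 and 104 CPM in Ki-67-KO libraries and at 38.9, 39.6 and 46.3 CPM in wild-type libraries (log2 fold change 1.31, SE 0.12, edgeR adjusted p = 0.000108). Esrp2 was at 25.2, 35.2 and 29.5 CPM in Ki-67-KO libraries and at 2.37, 3.73 and 3.04 CPM in wild-type libraries (log2 fold change 3.29, SE 0.20, adjusted p = 1.11e-05 in edgeR). In the first stranded column the log2 fold change of Esrp2 was 2.11 and still passed. Tia1 also rose, and those that fell were Ptbp2, Mbnl1, Hnrnph1, Rbfox2 and Khdrbs1. The number lower was 3 without any of the wild-type replicates or without Ki-67-KO replicate 3, and 9 without Ki-67-KO replicate 1. Fgfr2 was thus lower, and the Esrp genes higher, in the same 3 libraries.

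The genes with the pattern most like each receptor over the 6 libraries were sought among 15202 tested genes with a mean of at least 1 CPM, by the root mean square difference of log2 CPM after each gene was centred on its own mean. For Fgfr1 the closest was Pdgfrb, the platelet-derived growth factor receptor of fibroblasts and pericytes, with a difference of 0.067. Pdgfrb was at 70.4, 146 and 99.0 CPM in Ki-67-KO libraries and at 32.6, 39.2 and 44.7 CPM in wild-type libraries, in the same order of libraries as Fgfr1. Its log2 fold change was 1.44, and 0.79 with only the libraries under 40% unmapped, and both passed. Mfap2, a protein of elastic microfibrils, and Sdk1, a cell adhesion protein, followed at 0.092 and 0.10. For Fgfr2 the closest were Gramd1b, Ms4a7 and Mki67, at differences of 0.081, 0.085 and 0.086. For Fgfr3 they were Hap1, Kctd12b and Gm21781, at 0.040, 0.050 and 0.052, none of which passed the test. The likeness is a description over 6 libraries that fall into 2 groups.

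**Figure D4:**
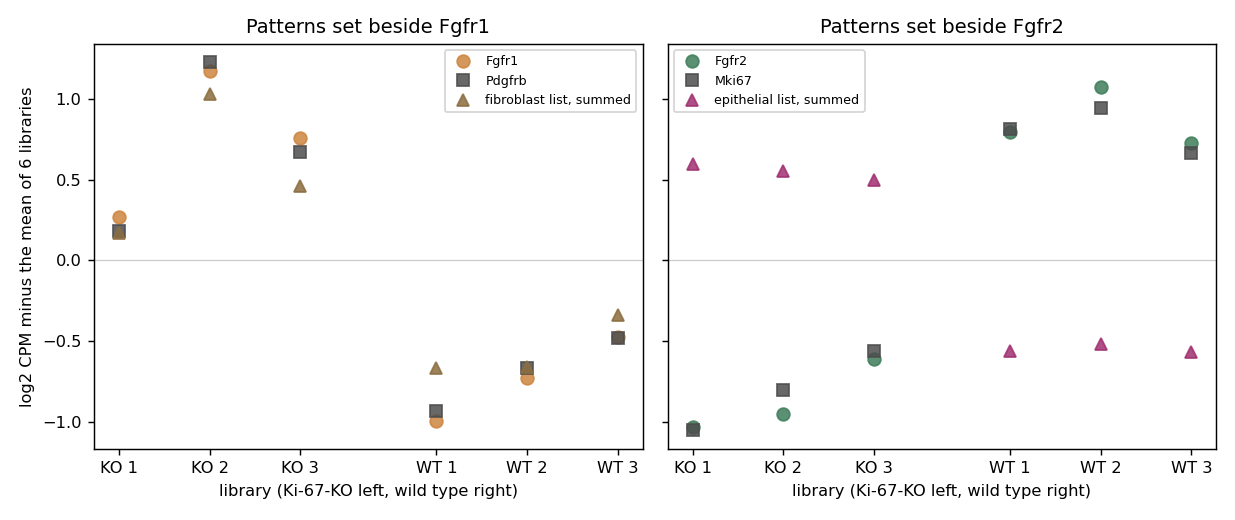
Log2 CPM of each library minus the mean of the 6 libraries, with the Ki-67-KO libraries on the left of each panel. The left panel sets Fgfr1 beside Pdgfrb and the summed fibroblast markers, and the right panel sets Fgfr2 beside Mki67 and the summed epithelial markers, which lie on the opposite side in each library.

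Markers of several other cell types also differed between the groups. The counts below stand beside 17.6% of all genes tested called higher and 18.4% called lower. The summed level of 10 fibroblast markers was 6472, 11787 and 7933 CPM in Ki-67-KO libraries and 3628, 3649 and 4560 CPM in wild-type libraries. Of these markers 9 were higher and 1, Pdgfra, lower. Among the Ki-67-KO libraries, replicate 2 was highest for this sum and for Fgf1, Fgf2, Fgf10, Fgfr1 and Fgfr3. Fgf7 was highest in Ki-67-KO replicate 1, and Fgf13, Fgf21, Fgfr2 and Fgfr4 in replicate 3. Adipocyte markers were higher for 8 of 8, with sums of 326 to 883 CPM in Ki-67-KO and 87.2 to 133 CPM in wild-type libraries, again highest in Ki-67-KO replicate 2. Keratinocyte markers were higher for 10 of 10 (748 to 1648 CPM in Ki-67-KO, 76.5 to 133 CPM in wild-type libraries). Krt14 made up most of that sum in each Ki-67-KO library, and the sum was again highest in replicate 2. Krt1 was at 34.0, 183 and 19.2 CPM in Ki-67-KO replicates 1, 2 and 3, and Krt10 overlapped between the groups. Skeletal muscle markers were higher for 7 of 8 (60.9 to 77.65 CPM in Ki-67-KO, 44.0 to 53.1 CPM in wild-type libraries). Schwann and neuronal markers, set beside Fgf13, were higher for 3 of 8, at sums of 42.1 to 54.5 CPM in Ki-67-KO and 9.12 to 12.9 CPM in wild-type libraries, of which Ncmap made up the most. Endothelial sums overlapped, at 238 to 324 CPM in Ki-67-KO and 244 to 331 CPM in wild-type libraries, with 1 of 8 higher. Macrophage markers were lower for 8 of 8, at 589 to 834 CPM in Ki-67-KO and 2038 to 2150 CPM in wild-type libraries, the same direction as Fgfr2. Hepatocyte markers, set beside Fgf21 and Fgfr4, summed to 0.45 to 0.52 CPM in Ki-67-KO and 0.24 to 0.32 CPM in wild-type libraries, with Serpina1c at 0 in all 6 libraries and none passing the filter. The part of these cell types in the results for the FGF genes was not tested.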

How the data were processed

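RNA of 6 samples was sequenced in paired-end mode with 50 bp reads, per the series' design text, and the group and replicate number of each library were taken from its title. Each deposited table lists raw, unscaled counts for every gene, once without regard to strand and once for each strand (2 further columns). STAR 2.6.0c, FastQC, DESeq2 and GRCm38 are named in the submitters' processing notes, and the tables are laid out as STAR writes them, where pairs that map to several places or to exons of more than 1 gene are not counted. The first 4 rows name no gene and stayed out of totals and tests; in them unmapped pairs were 30.8% to 54.6%, and multimapping pairs 3.12% to 4.40%, of all pairs. The unstranded column was used, since 50.1% to 50.2% of stranded counts fell in the first of those columns, so a gene and its antisense partner cannot be told apart.

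Of 54146 identifiers, 54079 matched GENCODE M21 (GRCm38), which gave symbols, coordinates and exonic lengths. The test was the quasi-likelihood F test of edgeR 4.0.16 (R 4.3.3) after filterByExpr and TMM scaling, with Benjamini-Hochberg adjustment over 19900 genes and a threshold of 0.05. SE was taken as the size of the log2 fold change over the root of F. CPM values carry TMM factors. The limit that a count of 0 allows, 3 counts, is 0.078 to 0.136 CPM by library and covers counting error only. Permutation tests were exact and two-sided. Promoter windows came from RefSeq, with 8 of 10 members matched, and sequence for Fgf1 and Fgfr1 was not used here.

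The members and the gene lists were chosen with earlier results of these data known. Named genes are the members, Mki67, up to 4 genes with the smallest p in each of the 5 pathway lists, 10 counterpart genes given by name, and the 3 closest patterns of Fgfr1, Fgfr2 and Fgfr3. Fgf8, Fgf11, Kl, Sdc3, Sdc4, Fgfrl1, Grb2, Map2k1, Spred1, Spred2, Spry2, Ccnd1, Dusp4, Egr1, Il17rd, Mbnl1, Hnrnph1, Rbfox2, Khdrbs1, Ncmap, Pdgfra, Krt1, Krt10 and Krt14 lie outside that rule and were chosen after their values were seen. The 18 alternatives were DESeq2 1.42.0, RLE size factors, unscaled library totals, a stricter filter or none, the first stranded column, a robust fit, the replicate block, removal of mitochondrial and the 20 most abundant genes, only libraries under 40% unmapped, a covariate for the unmapped share or for the share outside exons, and each library left out. The fit was first run on simulated data with known changes.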

Additional observations from a re-analysis of the deposited data

How the results depend on the processing

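The calls of Fgfr1, Fgfr2, Fgf2, Fgf7 and Fgf10 held in every alternative that tested them, with log2 fold changes of 0.92 to 1.69, -1.97 to -1.64, 0.90 to 1.50, 0.92 to 1.29 and 1.88 to 3.19. Fgf10 and Fgf13 were not tested with the stricter filter and Fgf13 not with the stranded column. The members called higher were 4 to 6 and lower 1. Fgfr3 turned sign without the filter (-0.0020), with libraries under 40% unmapped (-0.050), with the unmapped share as a covariate (-0.011) and without Ki-67-KO replicate 2 (-0.20), none called, and ranged up to 0.23 with a library left out. The genes of like pattern were chosen for their match to Fgfr3 over these same libraries, so turns shared with it are no separate result. Hap1 turned sign in 4 alternatives, and Kctd12b and Gm21781 in 2 each. Hap1 was -0.020 without the filter, -0.059 with libraries under 40% unmapped, -0.019 with the unmapped share as a covariate and -0.18 to 0.19 with a library left out. Kctd12b was -0.0062 without the filter and -0.14 to 0.22 with a library left out, and Gm21781 was -0.047 with libraries under 40% unmapped and -0.17 to 0.23 with a library left out. Fgf14 was -0.21 in the fit that holds the share outside exons. The cause was not tested.

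The difference in the log2 ratio of Fgfr3 to Fgfr1 was -0.99 with libraries under 40% unmapped and -1.66 to -1.23 with a library left out; that of Fgfr2 to Fgfr1 was -3.39 to -2.93. With a library left out, the share difference of Fgfr1 was 43.3 to 48.8 points, of Fgfr2 -49.6 to -44.1 and of Fgfr3 0.0070 to 1.66. Over all genes, 4036 to 9301 were called with a library left out, 1811 to 4648 higher and 2225 to 4778 lower; 2333 were higher with the unmapped share, and 2237 lower with the share outside exons, as covariate. Other ligands counted 1 higher with the stricter filter, the block, either covariate and libraries under 40% unmapped, where 1 was lower, and 1 to 4 higher and 0 to 1 lower with a library left out. Transducers counted 2 higher with library totals alone, the stricter filter and without abundant genes, 1 with the stranded column, 10 lower with libraries under 40% unmapped and 2 with the share outside exons, and 0 to 1 higher and 1 to 9 lower with a library left out. Feedback genes counted 3 higher with libraries under 40% unmapped or the unmapped share, 5 lower with the share outside exons, and 3 to 5 higher and 4 to 10 lower with a library left out. Splice regulators counted 3 lower with the stranded column and 2 with the share outside exons, and 3 to 9 with a library left out; co-receptors counted 7 to 10 higher with one left out.

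Same-numbered libraries deviated with correlations of 0.053, -0.21 and -0.24 and only wild-type library 1 matched best with its own number. These values gave no sign of pairing by number, but 3 libraries per group are too few to exclude it. With the replicate block 6662 genes were called, against 7158 without it, the ratios differed by -3.20 and -1.43 (sign-flip permutation, smallest p 0.25), and Fgf9 and Klb were not called. Depth limits Fgf21 and Fgfr4.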
